A study of Rattus norvegicus with 20 samples.

Results

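The nuclear genes for subunits of the mitochondrial respiratory chain and of ATP synthase were followed in livers of rats given triphenyl phosphate, an organophosphate flame retardant and plasticiser. They were taken by name: every gene with a single symbol in the array's annotation that starts with Ndufa, Ndufb, Ndufc, Ndufs, Ndufv, Uqcr, Cox4 to Cox8 or Atp5, with Sdha, Sdhb, Sdhc, Sdhd and Cyc1 added. This gave 87 of the 14217 genes tested, each read by the probe set of highest mean signal over the 20 arrays. Of these, 34 encode subunits of complex I, 4 of complex II, 8 of complex III, 16 of complex IV and 15 of complex V. The other 10 are 6 assembly factors of complex I (Ndufaf1, Ndufaf3, Ndufaf4, Ndufaf5, Ndufaf7 and Ndufaf8) and 4 related genes (Atp5if1, Cox7a2l, Ndufa4l2 and the pseudogene Cox6c-ps1). Atp5mc1, Atp5mc2, Cox7a2, Uqcrb, Ndufs5 and Ndufa10 sit on probe sets that also name another gene and were not analysed singly. None of 13 listed mitochondrially encoded subunits was among the genes tested.

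Complexes I to IV of the inner mitochondrial membrane pass electrons from NADH and succinate to oxygen and, at complexes I, III and IV, move protons out of the matrix. ATP synthase, complex V, lets the protons back and makes ATP. Liver cells are rich in mitochondria and draw on this pathway for urea synthesis, gluconeogenesis and the oxidation of fatty acids, and most of its subunits are encoded in the nucleus.

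The animals were male Harlan Sprague-Dawley rats dosed by oral gavage once a day on 4 days and sampled on day 5. All received corn oil, which carried triphenyl phosphate at 55, 110, 220, 440 or 881 mg/kg body weight in the dosed rats (the design text gives 441 where the sample labels give 440). Liver RNA was hybridised to 1 Affymetrix array per sample, 5 arrays for the vehicle and 3 for each dose. The labels do not tie arrays to separate animals, so the p-values cover the spread among the arrays of a group, part of which may be technical. Values are log2 signals, differences are log2 changes of a dose minus vehicle, and a gene rose or fell where limma's adjusted p over all 14217 genes was under 0.05.

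Replicate 2 at 881 mg/kg stood apart. Its 3' minus 5' difference for the Gapdh control probes was 5.24 on the log2 scale, against 0.81 to 1.64 on the other 19 arrays, and its median correlation with the other arrays was 0.980, against at least 0.990 on each of the rest. Markers of Kupffer cells, the resident macrophages of liver, were lower at 881 mg/kg: 7 of 8 fell (4 of 8 without replicate 2). Of all genes tested 6.73% fell at that dose. Without replicate 2, 559 of the 14217 fell and 11.6% were called in either direction. The summed log2 signal of the Kupffer cell markers ran from 70.6 to 76.0 at 881 mg/kg, 71.3 to 76.4 at 440 mg/kg and 77.1 to 81.0 in vehicle. At 55, 110 and 220 mg/kg it ran from 75.4 to 82.1, 76.0 to 78.4 and 74.6 to 77.3, overlapping vehicle. The 6 hepatocyte markers summed to between 81.9 and 83.5 at 881 mg/kg and to between 82.9 and 83.8 in vehicle, with 1 that rose and 2 that fell (1 and 0 without replicate 2). Of the other marker lists, 4 of 8 stellate cell, 3 of 6 endothelial, 3 of 6 lymphocyte and 2 of 3 blood cell genes fell at 881 mg/kg, and 1, 1, 1 and 2 without replicate 2. Lymphocyte markers summed to between 33.5 and 33.9 at 881 mg/kg and between 34.8 and 35.3 in vehicle. Blood cell markers summed to between 21.3 and 24.8 at 881 mg/kg and between 26.3 and 28.4 in vehicle. The sums of the stellate cell, endothelial, bile duct and striated muscle lists at 881 mg/kg overlapped vehicle. Of 4 bile duct markers 1 rose, Epcam, by 0.86 (0.65 without replicate 2). The part of the cell makeup in the results below was not tested, and in whole tissue fewer cells of a type and less RNA per cell cannot be told apart.

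At 881 mg/kg 4 of the 87 genes rose and none fell, so 4.60% were called. Of all genes tested 19.5% were called at that dose, 12.7% higher and 6.73% lower. The genes that rose were Ndufs1 of complex I, Uqcrc1 of complex III, Atp5f1c of complex V and Atp5if1, the inhibitor of complex V, each by between 0.26 and 0.51 on the log2 scale. At an unadjusted p under 0.05 the counts were 20 of the 87 (23.0%) and 33.4% of all genes, and without replicate 2 they were 13 (14.9%) and 25.6%. The median log2 change of the 87 was -0.014 (0.0068 without replicate 2), with a median size of 0.092 and a median standard error of 0.079. Over all genes the median was 0.00072, the median size 0.149 and the median standard error 0.102. The 95% interval of the change lay wholly within 0.5 log2 units of 0 for 80 of the 87 (92.0%) and for 72.1% of all genes, so for most of these genes a larger shift lay outside the interval. Without replicate 2 the same 4 genes rose and Ndufb10 fell (5.75%), and 11.6% of all genes were called. All 3 arrays at 881 mg/kg lay above all 5 vehicle arrays in 8 of the 87 (9.20%, against 13.4% of all genes) and below them in none (8.31% of all genes).

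**Figure D1:**
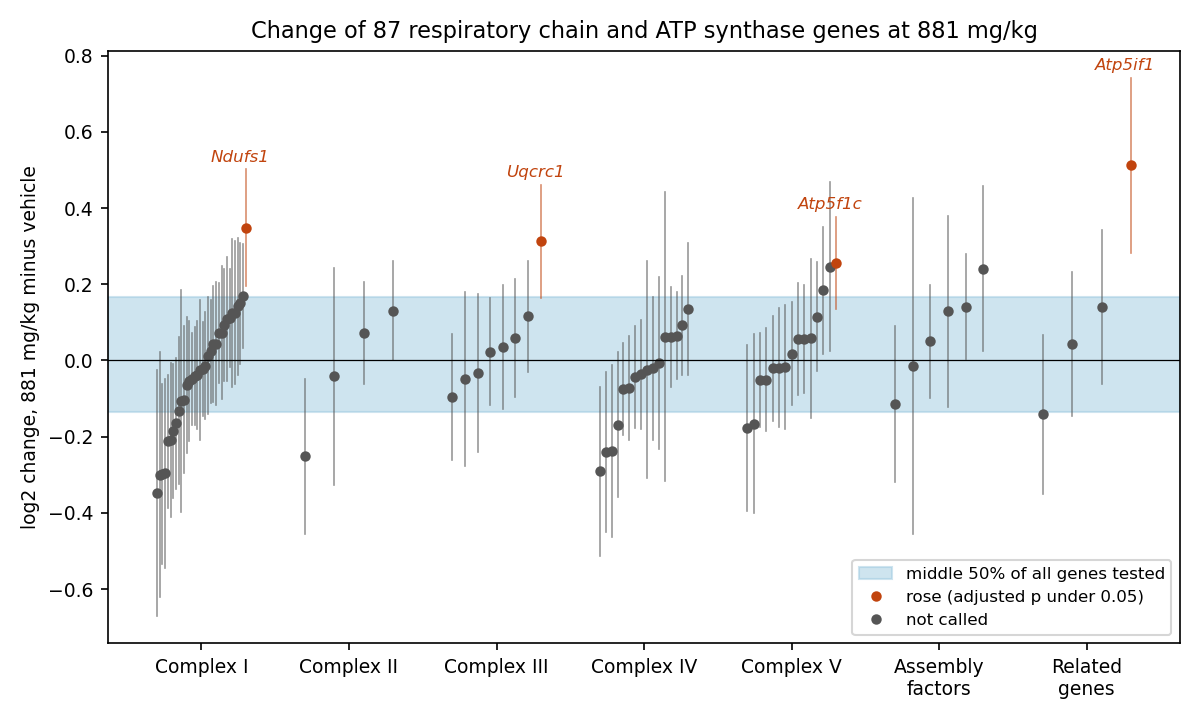
Each point is the log2 change of 1 gene at 881 mg/kg minus vehicle (y axis), grouped by complex (x axis), with its 95% interval as a line and the middle 50% of all genes tested as a band. The 4 genes that rose are named, and Atp5if1 at 0.51 lies highest.

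Most of these genes, 68 of the 87, had a mean log2 signal of 11 or more. Of 1078 genes of the array in that range, 305 (28.3%) were called at 881 mg/kg, and of the 68 respiratory chain and ATP synthase genes 3 (4.41%) were called. There the median size of the change was 0.0728 over the 68 and 0.151 over the 1078, and the median standard error was 0.0748 and 0.0878. The 1078 include the 68, and these counts hold replicate 2 and were not repeated without it. This split by signal was chosen after the values were seen.

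**Figure D2:**
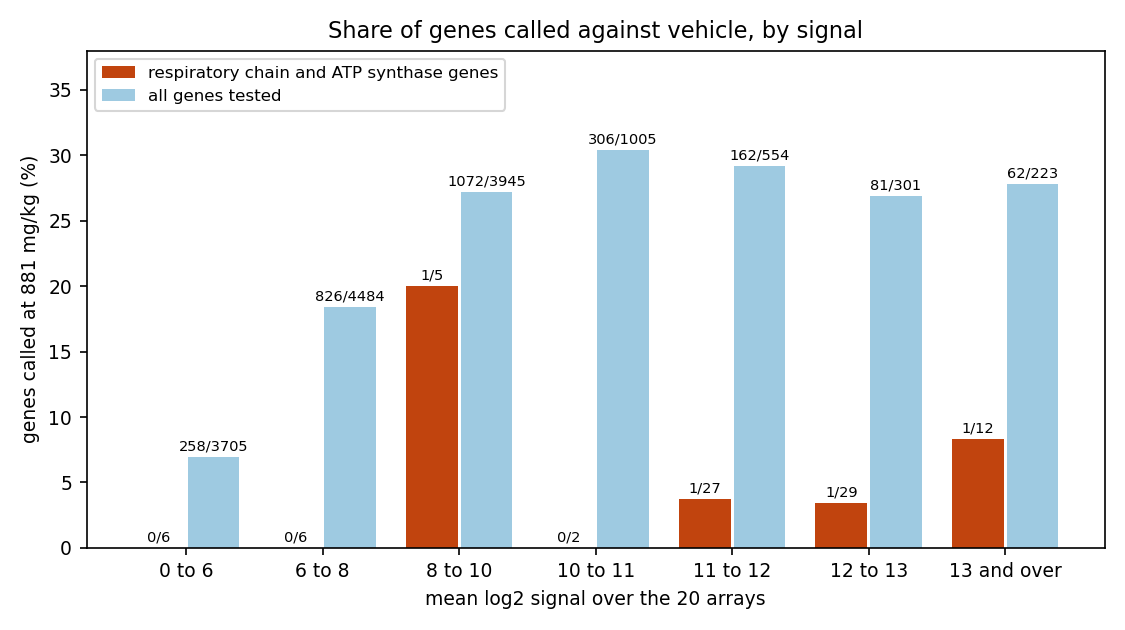
Bars give the percent of genes called at 881 mg/kg against vehicle (y axis) in ranges of mean log2 signal (x axis), for the respiratory chain and ATP synthase genes (left bar) and all genes tested (right bar), with called and tested genes above each. Between 11 and 12, 1 of 27 and 162 of 554 were called.

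Complex I takes electrons from NADH. Of its 34 genes 1 rose and none fell at 881 mg/kg, with a median log2 change of -0.025 and a range of -0.35 to 0.35. Ndufs1, the largest iron-sulfur subunit of the arm that receives the electrons, had log2 signals of 11.39, 11.56 and 11.53 on the 881 mg/kg arrays, against 11.18, 11.07, 11.14, 11.20 and 11.12 on the vehicle arrays. All 3 dosed arrays were above all 5 vehicle arrays. The change was 0.35 (SE 0.073, 95% interval 0.19 to 0.50, adjusted p = 0.0028), and 0.31 (adjusted p = 0.019) without replicate 2. Ndufv1, which binds the flavin next to Ndufs1 and oxidises NADH, was not called at 0.15 (95% interval -0.01 to 0.31, adjusted p = 0.18), with 11.28, 11.21 and 11.41 at 881 mg/kg and 11.00 to 11.22 in vehicle.

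The 4 lowest changes in complex I, those of the accessory subunits Ndufa8, Ndufb8, Ndufa11 and Ndufb11, were nearer 0 without replicate 2. Ndufa8 had 11.05, 10.23 and 11.26 at 881 mg/kg, against 11.08 to 11.31 in vehicle. Ndufb8, of the membrane arm, had 9.33, 8.34 and 9.16 at 881 mg/kg, against 9.13 to 9.38 in vehicle. For both, replicate 2 lay far below the other dosed arrays. Their log2 changes were -0.35 and -0.30 with replicate 2 (adjusted p = 0.12 and 0.18), and -0.039 and 0.00095 without it. Ndufa11 and Ndufb11, both at -0.30 with it, were at -0.087 and -0.086 without it. Ndufb10, another accessory subunit, was at -0.21 (adjusted p = 0.082) with replicate 2 and fell by 0.29 (adjusted p = 0.044) without it, and Ndufb7 was at -0.11 with it and -0.31 (adjusted p = 0.13) without it.

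Complex II, succinate dehydrogenase, also belongs to the citric acid cycle and none of its 4 genes was called. Sdha, the flavoprotein that oxidises succinate, had 11.79, 10.97 and 11.80 at 881 mg/kg, against 11.73, 11.47, 11.57, 11.52 and 11.51 in vehicle. Replicates 1 and 3 were above every vehicle array and replicate 2 below every one. The log2 change was -0.042 (95% interval -0.33 to 0.24), and 0.23 without replicate 2 (adjusted p = 0.095). Sdhb, the iron-sulfur subunit, had 12.39, 11.93 and 12.50 at 881 mg/kg, against 12.49 to 12.62 in vehicle. Its change was -0.25 (adjusted p = 0.077), and -0.081 (adjusted p = 0.56) without replicate 2. The membrane anchors Sdhc and Sdhd were at 0.13 and 0.073 (0.19 and 0.11 without replicate 2), none of these called.

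In complex III, which hands electrons from ubiquinol to cytochrome c, 1 of 8 genes rose, with a median log2 change of 0.030. Uqcrc1, a core protein on the matrix side of the complex, had 12.54, 12.77 and 12.61 at 881 mg/kg, against 12.24, 12.37, 12.30, 12.33 and 12.39 in vehicle. The groups did not overlap. The change was 0.31 (SE 0.071, 95% interval 0.16 to 0.46, adjusted p = 0.0045), and 0.25 (adjusted p = 0.038) without replicate 2. Its partner core protein Uqcrc2 was at 0.12, cytochrome c1 (Cyc1) at -0.097 and the Rieske iron-sulfur protein (Uqcrfs1) at -0.033, none of them called. Without replicate 2 Uqcrfs1 was at 0.13 (adjusted p = 0.31).

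Complex IV, cytochrome c oxidase, reduces oxygen, and none of its 16 genes was called. Its 10 genes other than isoforms of other tissues had a median log2 change of 0.027 and ran from -0.075 to 0.14. Cox4i1, a nuclear subunit known to regulate the enzyme, had 13.22, 12.90 and 13.14 at 881 mg/kg, against 12.97 to 13.24 in vehicle. The groups overlapped, and the change was -0.0068 (95% interval -0.23 to 0.22), and 0.085 (adjusted p = 0.69) without replicate 2. The Cox5a probe set with a single symbol is dim, with a mean of 8.03 at 881 mg/kg and 7.97 in vehicle, and its interval of -0.32 to 0.44 is wide.

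Some complex IV subunits have a second form used in other tissues: Cox4i2 in lung, and Cox6a2, Cox7a1 and Cox8b in heart and skeletal muscle. Their probe sets were dim, with means of 4.18 to 5.34 at 881 mg/kg and 4.47 to 5.58 in vehicle. Their log2 changes ran from -0.29 (Cox8b, adjusted p = 0.061) to -0.17 (Cox6a2, adjusted p = 0.20), none of them called. Cox8b passed the test in 4 of the 14 alternatives that held it, among them centred arrays (-0.34, adjusted p = 0.033) and a replicate block (-0.39, adjusted p = 0.011). The remaining isoforms of other tissues, Cox6b2 and Cox7b2, were at -0.024 and -0.021, and at 0.0085 and -0.15 without replicate 2, not called. The liver forms Cox6a1 and Cox8a were at 0.092 and 0.062 (0.14 and 0.11 without replicate 2), also not called. None of 4 striated muscle markers was called.

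Of the 15 genes of ATP synthase 1 rose, with a median log2 change of 0.017. Atp5f1c, the gamma subunit that forms the rotating stalk, had 13.21, 13.30 and 13.26 at 881 mg/kg, against 13.05, 12.96, 12.96, 13.03 and 13.01 in vehicle. The groups did not overlap. The change was 0.26 (SE 0.058, 95% interval 0.14 to 0.38, adjusted p = 0.0044), and 0.23 (adjusted p = 0.024) without replicate 2. The subunits around that stalk did not pass the test. Atp5f1b, the catalytic beta subunit, had 13.88, 13.65 and 13.93 at 881 mg/kg, against 13.67 to 13.76 in vehicle, a change of 0.11 (adjusted p = 0.25) that was 0.20 (adjusted p = 0.059) without replicate 2. Atp5f1a, the alpha subunit, had 12.93, 12.23 and 12.94 at 881 mg/kg, against 12.80 to 12.95 in vehicle, a change of -0.17 (adjusted p = 0.32) that was 0.067 without replicate 2. Atp5mc3, which encodes the proton-carrying ring, was at -0.050, and at 0.020 without replicate 2.

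Atp5if1 encodes a small protein known to bind ATP synthase and stop it from running backwards and hydrolysing ATP. It had 10.15, 10.38 and 9.97 at 881 mg/kg, against 9.69, 9.69, 9.43, 9.74 and 9.73 in vehicle. All 3 dosed arrays lay above the vehicle arrays. The change was 0.51 (SE 0.11, 95% interval 0.28 to 0.74, adjusted p = 0.0031), the one change over 0.5 among the 87 genes, and 0.40 (adjusted p = 0.030) without replicate 2. Its other probe sets, both dimmer, gave 0.39 (adjusted p = 0.069) and 0.089 (adjusted p = 0.73). These came from a separate limma fit adjusted over the 20826 probe sets with 1 symbol, where the probe set used had an adjusted p of 0.0041.

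**Figure D3:**
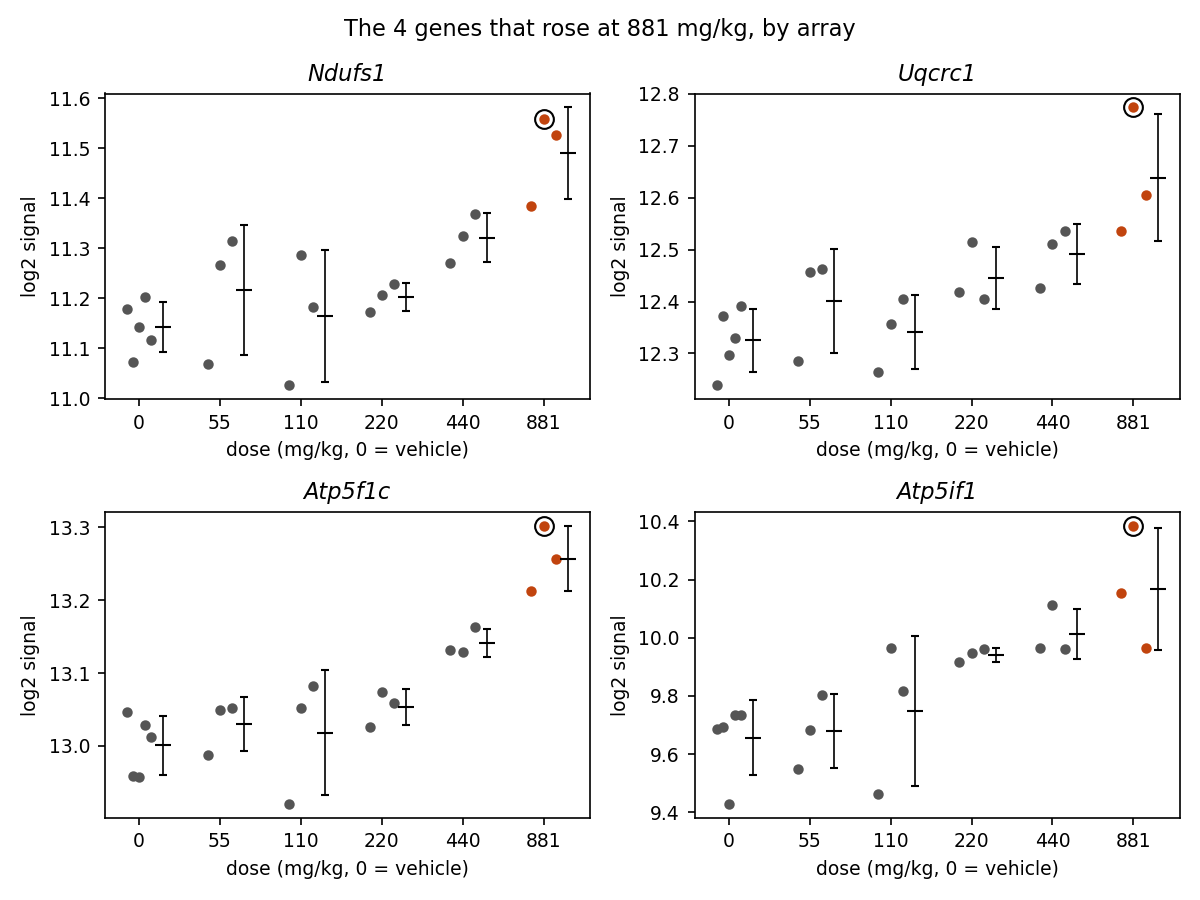
Points are log2 signals of single arrays (y axis) by dose with vehicle at 0 (x axis), bars are the mean and SD of each group, and the ring marks replicate 2 at 881 mg/kg. In all 4 genes the 3 arrays at 881 mg/kg lie above the 5 vehicle arrays.

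Among the assembly factors, which build complex I and are not part of it, none was called at any dose. Ndufaf4 had the widest spread, with 9.61, 10.08 and 9.55 at 881 mg/kg and 9.08, 9.93, 10.27, 9.92 and 9.61 in vehicle. The groups overlapped. Its log2 change against vehicle was -0.73 at 55 mg/kg, -0.66 at 110, -0.58 at 220, -0.29 at 440 and -0.015 at 881 mg/kg (-0.18 without replicate 2). The smallest adjusted p of these was 0.072, at 55 mg/kg. Ndufaf5 was at 0.24 at 881 mg/kg (adjusted p = 0.11), and at 0.10 (adjusted p = 0.56) without replicate 2.

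At 55, 110 and 220 mg/kg none of the 87 genes was called, where 2.81%, 3.61% and 3.43% of all genes were. An unadjusted p under 0.05 was found in 2, 3 and 5 of the 87 (2.30%, 3.45% and 5.75%). Of all genes 15.9%, 16.7% and 16.6% had one. At 440 mg/kg 1 rose and 1 fell (2.30%), against 11.0% of all genes, 6.76% higher and 4.28% lower. There 10 of the 87 (11.5%) had an unadjusted p under 0.05, against 25.6% of all genes. At that dose 12 of the 87 (13.8%) had all arrays above vehicle and 5 (5.75%) all below, against 12.8% and 8.40% of all genes. Atp5if1 rose by 0.36 (adjusted p = 0.042), with 9.96, 10.11 and 9.96 at 440 mg/kg against 9.43 to 9.74 in vehicle. Ndufb6, an accessory subunit of the membrane arm of complex I, fell by 0.20 (adjusted p = 0.029), with 11.42, 11.47 and 11.38 at 440 mg/kg against 11.51 to 11.71 in vehicle. At 881 mg/kg Ndufb6 was at -0.049 and not called. The calls at 440 mg/kg held in 5 of 15 alternatives for Atp5if1 and in 8 of 15 for Ndufb6. Leaving out 1 array at a time gave adjusted p from 0.048 to 0.18 for Atp5if1 and from 0.016 to 0.12 for Ndufb6. Between 881 and 440 mg/kg none of the 87 was called by limma, against 0.260% of all genes. At an unadjusted p under 0.05 the counts were 2 of the 87 (2.30%) and 10.6% of all genes.

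Across dose steps 0 (vehicle) to 5 (881 mg/kg), 4 genes rose and 3 fell (8.05%), against 21.7% of all genes, 12.9% higher and 8.81% lower. Without replicate 2 at 881 mg/kg 6 rose and 1 fell, against 17.0% of all genes. The genes that rose with all arrays were the same 4 as at 881 mg/kg, and these 4 rose without replicate 2 too, with Ndufv1 (adjusted p = 0.0499) and Sdhc (adjusted p = 0.035) added. Atp5if1 rose by 0.10 per step, Ndufs1 by 0.057, Uqcrc1 by 0.054 and Atp5f1c by 0.045, with adjusted p from 0.00030 to 0.0041. Their log2 changes by dose show where this came from. Atp5if1 was at 0.023, 0.093, 0.29, 0.36 and 0.51 at 55, 110, 220, 440 and 881 mg/kg, and Ndufs1 at 0.075, 0.022, 0.060, 0.18 and 0.35. Uqcrc1 was at 0.076, 0.016, 0.12, 0.17 and 0.31, and Atp5f1c at 0.029, 0.017, 0.052, 0.14 and 0.26. These comparisons share the 5 vehicle arrays.

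The 3 genes that fell across dose steps with all arrays are accessory subunits of complex I, and 1 of them, Ndufb10, fell without replicate 2 at 881 mg/kg. Ndufb10 fell by 0.050 per step (adjusted p = 0.012), with group means of 11.45 in vehicle and 11.43, 11.39, 11.22, 11.25 and 11.24 from 55 to 881 mg/kg. Ndufb11 fell by 0.061 per step (adjusted p = 0.033), with 12.05 in vehicle and 12.14, 12.06, 12.02, 11.86 and 11.76. Without replicate 2 at 881 mg/kg Ndufb11 was no longer called (adjusted p = 0.12). Ndufv3 fell by 0.044 per step (adjusted p = 0.040), but its probe sets disagreed. Its other probe set had 8.48, 8.10 and 8.78 at 881 mg/kg against 7.94 to 8.15 in vehicle. That was a rise of 0.42 (adjusted p = 0.012 in a limma fit over the 20826 probe sets with 1 symbol). From 55 to 440 mg/kg its arrays ran from 8.26 to 8.54, all above the vehicle arrays. The mean of both probe sets gave 0.018 per step. The call of Ndufv3 across dose steps held in 13 of 26 alternatives. The probe sets of Atp5po, Sdhd and Uqcrc2 also differed in sign at 881 mg/kg, with none of them called.

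The complexes were set side by side by averaging, on each array, the log2 difference from the vehicle mean over the genes of a complex. At 881 mg/kg the group mean was -0.030 ± 0.049 for complex I, -0.023 ± 0.23 for II, 0.046 ± 0.061 for III, -0.050 ± 0.034 for IV and 0.032 ± 0.047 for V (SD, n = 3). Complex IV without its 6 isoforms of other tissues was at 0.018 ± 0.018 at 881 mg/kg (SD, n = 3), with a vehicle SD of 0.025, so its direction turned. In vehicle the SD over 5 arrays was 0.032, 0.062, 0.027, 0.013 and 0.026 for complexes I, II, III, IV and V. Complex II had the widest spread at 881 mg/kg, with -0.29 in replicate 2 and 0.10 and 0.12 in replicates 1 and 3. Its vehicle arrays ran from -0.056 to 0.11. The median log2 change of its 4 genes was 0.015 with replicate 2 and 0.15 without it. For complexes I, III, IV and V the medians were -0.025, 0.030, -0.030 and 0.017 with it. Without it they were -0.022, 0.019, -0.027 and 0.020. These averages are a description, with no test between complexes.

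**Figure D4:**
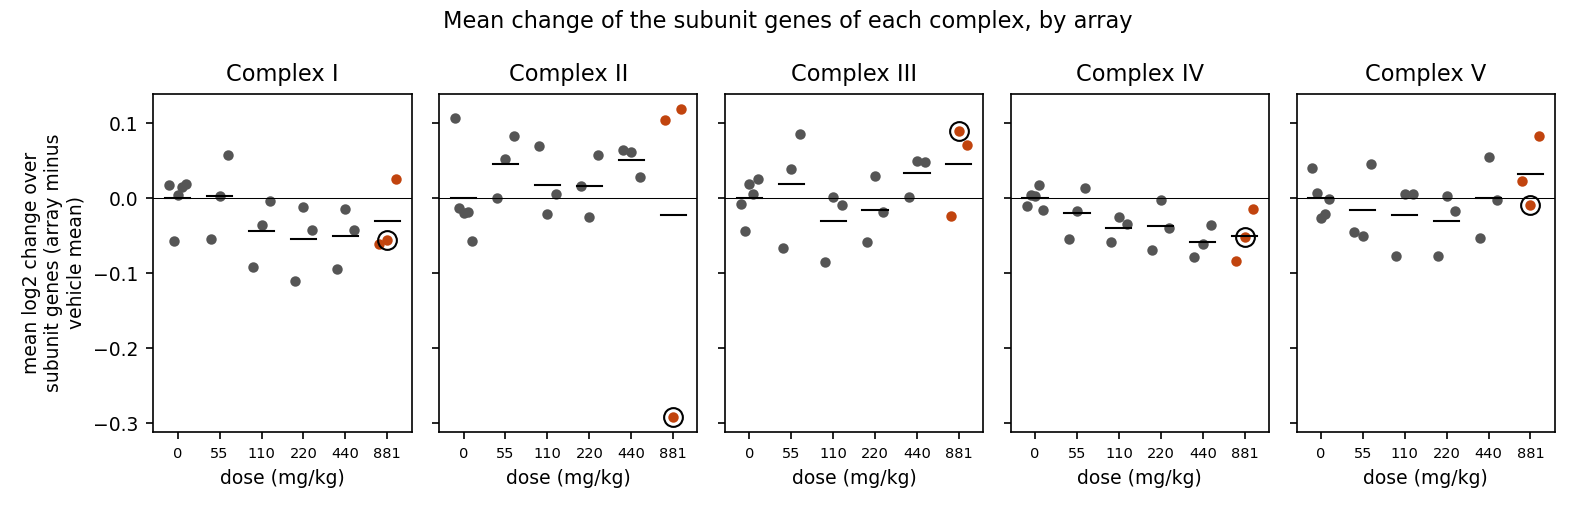
Points are the mean log2 difference from the vehicle mean over the genes of each complex (y axis) on single arrays by dose with vehicle at 0 (x axis), bars are group means, and the ring marks replicate 2 at 881 mg/kg. Replicate 2 lies at -0.29 in complex II.

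Replicate 2 at 881 mg/kg was the lowest of the 20 arrays for 16 of the 87 genes and the highest for 25, together 47.1%, against 36.0% of all genes. In 8 genes it was over 0.5 below the mean of replicates 1 and 3: Ndufa8 (-0.93), Ndufb8 (-0.90), Sdha (-0.82), Atp5f1a (-0.70), Ndufa11 (-0.63), Ndufb11 (-0.63), Sdhb (-0.51) and Uqcrfs1 (-0.50). In Ndufb7 (0.61) and Ndufaf4 (0.50) it was over 0.5 above. The part of RNA quality in these differences was not tested.

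**Figure D5:**
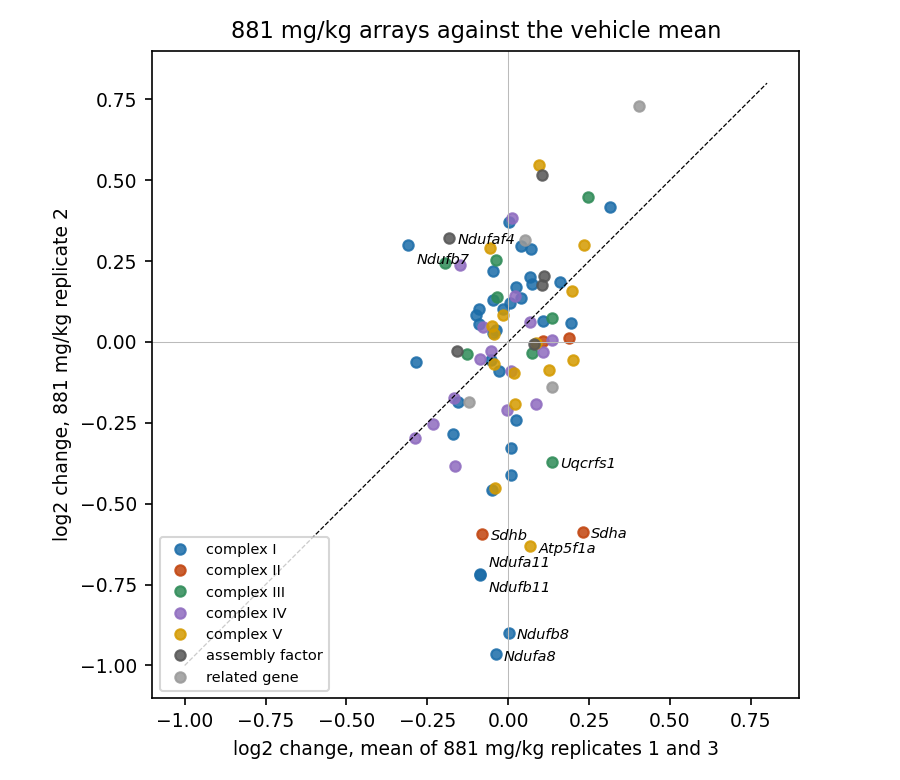
Each point is 1 of the 87 genes, with the log2 change from the vehicle mean in replicate 2 at 881 mg/kg (y axis) against the mean change in replicates 1 and 3 (x axis), coloured by complex, and the dashed line marks equal change. The 10 genes more than 0.5 from equality are named, 8 of them below the line.

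Other genes of the pathway were counted in the same fit, where 19.5% of all genes were called at 881 mg/kg (12.7% higher, 6.73% lower) and 11.6% without replicate 2. Of 36 measured assembly factors outside the naming rule, 7 rose and 1 fell at 881 mg/kg, and 6 rose and 1 fell without replicate 2. Acad9, a complex I assembly factor, rose by 0.76, with 10.97 to 11.24 at 881 mg/kg against 10.30 to 10.35 in vehicle (adjusted p = 4.6e-05). Cox15, which makes heme A for complex IV, rose by 0.45, with 9.39 to 9.42 at 881 mg/kg against 8.90 to 9.02 in vehicle. Sdhaf3, a complex II assembly factor, rose by 0.55, while Coa7, of complex IV assembly, fell by 0.55. These lists were not tested as sets, and the difference in share from the subunits was not tested.

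Of 20 regulators of mitochondrial biogenesis 4 rose and 1 fell, and 3 rose and 1 fell without replicate 2. For these and the lists that follow, 19.5% of all genes were called with replicate 2 and 11.6% without it. Myc rose by 2.16 (8.49 to 9.99 at 881 mg/kg, 6.78 to 7.93 in vehicle), Gabpb1, a subunit of the ETS-family factor GABP, by 0.49, and Tfb2m, which helps transcribe mitochondrial DNA, by 0.43. Ppargc1b, a coactivator of mitochondrial genes, fell by 0.46. The call of Gabpb1 did not hold without replicate 2 (0.42, adjusted p = 0.13). Of 15 genes of the citric acid cycle and of pyruvate dehydrogenase, which feeds it, 4 rose and 1 fell, and 2 rose without replicate 2. The cycle genes Idh3a and Idh3g rose by 0.36 and 0.28, and Idh3g also rose without replicate 2. Pdhb and Pdhx, of pyruvate dehydrogenase, rose by 0.34 and 0.41, Pdhb also without replicate 2, and citrate synthase (Cs) fell by 0.33 with replicate 2 (adjusted p = 0.017) and was at -0.26 (adjusted p = 0.10) without it. Of 14 genes of mitochondrial protein quality control 5 rose and 1 fell, and 3 rose and 1 fell without replicate 2: the protease gene Afg3l2 rose by 0.57 and Clpx, an unfoldase gene, fell by 0.80. Of 13 measured genes of a list for cytochrome c and ubiquinone 2 rose (Coq2 by 0.30 and Coq9 by 0.21), and none without replicate 2. The 13 were Hccs, Pdss2 and Coq genes, with no cytochrome c gene among them. Of 14 carriers, porins and uncouplers 1 rose (Vdac2, 0.27) and 2 fell (Slc25a4, -0.58, and Ucp1, -0.37), and 1 rose without replicate 2. Neither fall held without it (adjusted p = 0.32 for Slc25a4 and 0.10 for Ucp1). The Ucp1 probe set was dim, with means of 4.31 at 881 mg/kg and 4.68 in vehicle. Of 8 other donors to ubiquinone 1 fell, Prodh, by 0.53.

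Promoters of respiratory chain genes are known for sites of NRF1, ETS-family factors (GABP) and YY1. The promoters of the 4 genes that rose, and 3 that hold NRF1 motifs and were not called, are printed to set the letters beside the values. They are from RefSeq (GRCr8), end at the base before the annotated start, run 5' to 3' on the gene's strand and show in capitals any match on either strand to NRF1 (GCGCATGCG), ETS (CCGGAAG), YY1 (AAGATGGCG) or the antioxidant response element (TGACNNNGC). Ndufs1 lies at chr9:72073606-72073855 on the minus strand, Uqcrc1 at chr8:118467973-118468222 on the plus strand, Atp5f1c at chr17:73333435-73333684 on the plus strand and Atp5if1 at chr5:150026678-150026927 on the minus strand. The last 120 bases are given of Atp5me, at chr14:1464740-1464859 on the plus strand, Atp5po, at chr11:44657484-44657603 on the minus strand, and Ndufa11, at chr9:1637494-1637613 on the plus strand, where the NRF1 matches overlap.
Ndufs1: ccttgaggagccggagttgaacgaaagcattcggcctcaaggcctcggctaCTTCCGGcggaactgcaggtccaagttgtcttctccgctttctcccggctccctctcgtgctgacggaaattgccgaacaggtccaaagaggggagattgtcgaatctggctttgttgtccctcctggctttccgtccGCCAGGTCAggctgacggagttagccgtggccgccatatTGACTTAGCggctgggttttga
Uqcrc1: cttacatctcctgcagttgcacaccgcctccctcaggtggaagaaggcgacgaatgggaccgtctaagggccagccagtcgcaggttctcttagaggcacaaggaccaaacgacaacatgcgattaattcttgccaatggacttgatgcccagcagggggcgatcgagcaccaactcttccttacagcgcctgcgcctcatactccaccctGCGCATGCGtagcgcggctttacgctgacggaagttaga
Atp5f1c: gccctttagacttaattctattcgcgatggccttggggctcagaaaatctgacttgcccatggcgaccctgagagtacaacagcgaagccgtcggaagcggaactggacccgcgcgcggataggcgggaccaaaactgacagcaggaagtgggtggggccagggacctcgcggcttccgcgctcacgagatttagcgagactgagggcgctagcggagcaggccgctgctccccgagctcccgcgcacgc
Atp5if1: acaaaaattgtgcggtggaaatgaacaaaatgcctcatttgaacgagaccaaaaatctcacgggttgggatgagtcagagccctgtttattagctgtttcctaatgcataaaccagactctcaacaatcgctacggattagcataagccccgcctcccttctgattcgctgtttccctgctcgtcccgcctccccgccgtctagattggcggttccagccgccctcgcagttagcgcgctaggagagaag
Atp5me: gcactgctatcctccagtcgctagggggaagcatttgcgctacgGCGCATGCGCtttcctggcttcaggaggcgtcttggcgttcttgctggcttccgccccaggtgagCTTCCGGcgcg
Atp5po: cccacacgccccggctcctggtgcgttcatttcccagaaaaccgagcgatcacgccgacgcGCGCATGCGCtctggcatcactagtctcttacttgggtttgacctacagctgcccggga
Ndufa11: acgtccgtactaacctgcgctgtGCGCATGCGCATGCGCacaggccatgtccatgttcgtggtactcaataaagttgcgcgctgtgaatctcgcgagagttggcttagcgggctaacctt

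Promoters were matched for 78 of the 87 genes, over 300 bases, 250 before the start and 50 after. NRF1's motif was in 7 (8.97%), against 1.66% of all 27457 promoters and 2.83% of those of genes on the array. YY1's was in 11 (14.1%), against 1.93% and 3.14%, and the ETS motif in 22 (28.2%), against 9.22% and 15.1%. The antioxidant response element was in 9 (11.5%), against 12.2% and 14.4%. At 881 mg/kg 1 of the 7 genes with NRF1's motif was called and 3 of the 71 without it. For the ETS motif these counts were 1 of 22 and 3 of 56, and for YY1's 1 of 11 and 3 of 67. Of the genes that rose, Ndufs1 holds the ETS motif and 2 antioxidant response elements. Uqcrc1 holds NRF1's motif and a YY1 match that begins at the base before the start and runs past the stretch shown. With 1 more base, a C at its end, the NRF1 motif was in 5 of the 78 and not in Uqcrc1, and none of the 5 was called. Atp5f1c and Atp5if1 hold no match in these windows. Among the NRF1 promoters shown, the log2 change at 881 mg/kg was 0.18 for Atp5po, -0.051 for Atp5me and -0.30 for Ndufa11 (-0.087 without replicate 2), none of them called. A match is a run of letters and not a measured site.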

How the data were processed

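Liver RNA of 20 samples was measured on Affymetrix arrays. The deposited values are log2 signals per probe set, normalised by RMA per the submitters' processing notes. Of 31099 probe sets, 57 controls and 9780 without a symbol were left out, as were 436 that name several genes, and the probe set of highest mean was kept for each of 14217 genes. limma 3.58.1 (R 4.3.3) was fitted with lmFit and eBayes over 6 dose groups with no covariate. Each dose was compared with vehicle, 881 with 440 mg/kg, and dose steps were fitted as a line, with Benjamini-Hochberg adjustment over all genes. Other probe sets of a gene were read from a separate fit, adjusted over the 20826 probe sets with 1 symbol. The fit was tested on simulated data with independent normal noise. It called 67% of 100 genes given a log2 change of 0.5 and 97% of 100 given 1, with 11 false calls. Smaller changes were not simulated. Members and lists were chosen with earlier results of these data known. Genes named were the called members, a set of catalytic and isoform subunits, and others chosen after their values were seen. Same-numbered replicates were not treated as pairs. Alternatives covered scaling, filtering, probe set choice, covariates, a replicate block and leaving out each array. The number of arrays limits the precision, and arrays have no sequencing depth.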

Additional observations from a re-analysis of the deposited data

Results flagged for a closer look

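In the vehicle group, whose 5 arrays are the one group large enough for an outlier test, 1 array stood far from the others in 6 of 56 genes checked, where chance gives about 1 in 20. For Atp5if1, replicate 3 was lowest at 9.43 on the log2 scale, with the others from 9.69 to 9.74. For Ndufb10, replicate 2 was lowest at 11.27, with the others at 11.48 or above. Replicate 1 was highest for Atp5mc3 at 13.64 and for Ndufa4l2 at 6.42, and lowest for Cox4i2 at 4.66 and for Ndufb7 at 11.58. Replicate 1 holds 4 of these 6 values.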

How the results depend on the processing

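Ndufs1, Uqcrc1, Atp5f1c and Atp5if1 rose at 881 mg/kg in all 15 alternatives, with leave-one-out changes of 0.31 to 0.40, 0.25 to 0.36, 0.23 to 0.28 and 0.40 to 0.61. Called members numbered 4 at 881 mg/kg and 7 with a covariate for the 3' minus 5' beta-actin signal (3 in complex I, 2 in V). Without 1 array they numbered 4 to 10: 8 without 881 mg/kg replicate 1 and 10 (4 rose, 6 fell) without replicate 3. With either left out, the smaller group still held replicate 2. Ndufa8, Ndufb8, Ndufa11, Ndufb11 and Sdhb each fell in 1 or both of these fits. In each of them replicate 2 lay over 0.5 below the mean of replicates 1 and 3. The shares of all genes called with the covariate and without replicate 1 or 3 are not given here. With each array centred, every change at 881 mg/kg shifted by -0.047, the median of the members was -0.061, complex I had 2 calls, complex IV 1, the dose steps 12 (4 rose, 8 fell) and 440 mg/kg 1. The shares called with centring were 13.8% of the members against 22.1% of all genes for the dose steps. At 881 mg/kg they were 6.90% against 19.9%, and at 440 mg/kg 1.15% against 10.9%. At 440 mg/kg 1 was called with only the groups compared, and 0 to 2 without 1 array. At 220, 110 and 55 mg/kg leave-one-out gave 0 to 1 (the 1 without vehicle replicate 1), and the beta-actin covariate 1 at 110 and 1 at 55. Without 1 array complex I had 1 to 5 calls, II 0 to 1, IV 0 to 1, V 1 to 2, the dose steps 6 to 10 (4 to 6 rose, 1 to 6 fell), and the median ran from -0.014 to 0.035. A low-signal filter gave a median of 0.020. The mean of all probe sets reversed the Ndufv3 dose step change to 0.018. The cause of these shifts was not tested. Same-numbered arrays correlated above 0.1 in 28 of 45 pairs (median 0.14), and 15 of 18 arrays correlated best with their own number, a hint from the data and not the design. The replicate block called 5 members at 881 mg/kg, 1 of them in complex IV (Cox8b, fell), and 1 at 440 mg/kg.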
